A study of Mus musculus with 2 samples.

Results

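The clustered replication-dependent histone genes were taken as every gene whose symbol starts with Hist1h, Hist2h, Hist3h or Hist4h, which gave 67 of the 32285 genes in the tables. They comprised 6 genes for the linker histone H1, 18 for H2A, 18 for H2B, 12 for H3 and 13 for H4. The Hist1 cluster held 54 of them on chromosome 13, the Hist2 cluster 10 on chromosome 3, the Hist3 cluster 2 on chromosome 11 and the Hist4 locus 1 on chromosome 6 (GENCODE vM21, GRCm38). RNA of single mouse cells was measured in 2 droplet libraries (Chromium 3' v3), from mice with an osteoporotic fracture that had been given a rod inside the marrow space (an intramedullary nail). The Mg library came from animals with a magnesium nail and the Mg-TAGelMA library from animals with a Mg-TAGelMA nail, where GelMA is gelatin methacryloyl and TA is not spelled out. The labels list marrow of the femur and cells adhering to the nail as the material of both libraries. In what proportion these were mixed, strain, age, sex, time after surgery and the number of mice behind each library are not given in the sources used here. With 1 library per nail no test across nails was possible, cells are not replicates, and the intervals given, all exact at 95%, cover counting error alone.

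Replication-dependent histones package newly made DNA, and their genes are transcribed mainly in S phase. Their mRNAs usually end in a conserved stem-loop in place of a poly(A) tail, the stem-loop is bound by Slbp, and the mRNAs are degraded when replication ends. Some of these genes also give rise to polyadenylated transcripts, which differentiated cells can keep after leaving the cell cycle. In marrow, erythroid and B lymphoid precursors divide fast, whereas mature neutrophils do not divide. The labels give the measured molecule as polyA RNA, so histone mRNAs without a tail are not a direct target of the assay, and the UMIs (unique molecular identifiers, each standing for 1 captured molecule) below are those of whatever histone RNA was captured.

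The kept cells numbered 8122 in the Mg library (median 3803.5 UMIs) and 7226 in the Mg-TAGelMA library (median 6744), and 21 cell barcodes occurred in both. The libraries were counted with different Cell Ranger versions. A single gene, Gm42418, took 6.90% of the Mg UMIs and 0.110% of the Mg-TAGelMA UMIs. Genes with at most 8 kb of annotated intron took 62.2% and 54.9%. Summed S phase genes stood at 2360 and 1062 CPM (counts per 1000000), and summed G2 and M phase genes at 3121 and 1120 CPM. The part of these differences in the histone results was not tested beyond the rescaled values given.

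The stem-loop was searched in the annotated transcripts as GGNNNTNNNNANNNCC with both arms complementary. It was found in 46 of the 67 members, against 1.84% of 21884 other protein-coding genes. Members without a match included short annotated transcripts, such as Hist1h4k (312 bases) and Hist1h2bl (381). A missing match in the annotation thus does not show that a gene lacks the stem-loop. The form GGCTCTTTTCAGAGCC was present in 26 members, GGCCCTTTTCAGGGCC in 7 and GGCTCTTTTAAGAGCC in 6. The 8 sequences below, from GENCODE vM21, are shown because members with the same hairpin differed in how far the annotated transcript ran past it, a feature used further on. Capitals mark the stem-loop.
Hist1h2ap: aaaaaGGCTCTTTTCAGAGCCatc
Hist1h2ab: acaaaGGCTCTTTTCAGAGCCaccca
Hist1h3c: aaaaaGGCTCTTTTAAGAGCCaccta
Hist1h4d: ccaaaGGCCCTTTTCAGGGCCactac
Hist1h4i: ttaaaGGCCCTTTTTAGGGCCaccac
Hist1h1c: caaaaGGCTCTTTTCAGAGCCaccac
Hist3h2a: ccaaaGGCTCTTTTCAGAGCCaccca
Hist4h4: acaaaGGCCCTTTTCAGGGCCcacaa
The transcript ended 3 bases after the hairpin in Hist1h2ap, 11 in Hist1h2ab and 74 in Hist1h3c. It ran on for 330 bases in Hist1h4i, 770 in Hist1h4d, 840 in Hist1h1c, 1643 in Hist3h2a and 2445 in Hist4h4. Of the 67 members, 17 had a poly(A) signal (AATAAA or ATTAAA) in the last 50 bases.

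Histone UMIs were lower in the Mg-TAGelMA library. The 67 members summed to 292025 UMIs (5293 CPM) in Mg cells and to 105620 UMIs (1409 CPM) in Mg-TAGelMA cells. The level was 3.76-fold lower (3.73 to 3.78). In such sums over all cells, fewer cells of a type and less RNA per cell cannot be told apart. The fold depended on the total used for scaling: against all other genes without introns, which took 13.5% and 5.48% of UMIs with Gm42418 among them, it was 1.53-fold lower, and with Gm42418, AY036118, mitochondrial and haemoglobin genes left out of that total it was 3.90-fold lower.

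The histone types differed in size of the contrast. H3 genes had the widest one, at 585 CPM in the Mg and 88.4 in the Mg-TAGelMA library, 6.62-fold lower (6.45 to 6.80). H4 genes were 4.76-fold lower (4.65 to 4.87), H2A genes 3.84-fold (3.79 to 3.88) and H1 genes 3.49-fold (3.45 to 3.54). H2B genes had the narrowest contrast, at 434 and 189 CPM, 2.30-fold lower (2.25 to 2.35). Scaled to all other genes without introns, the H2B ratio turned to 1.07, Mg-TAGelMA over Mg. Single members weighed on these sums. Hist1h2bc gave 2710 Mg and 5893 Mg-TAGelMA UMIs to the H2B sum, and Hist1h1c gave 14788 and 18811 to the H1 sum. The order of the types without these members was not tested. By location, the Hist2 genes were 5.78-fold lower (5.57 to 6.01) and the Hist1 genes 3.799-fold lower (3.77 to 3.83), while the Hist3 pair was 1.17-fold lower (1.11 to 1.22).

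At least 20 UMIs over both libraries were found for 62 of the 67 members. The untested ones were Hist1h1t (11 and 1 UMIs), Hist2h2aa2 (2 and 0), and Hist1h2aa, Hist1h2ba and Hist1h2bq, each with 0 UMIs in both. For Hist2h2aa2 and Hist1h2bq, 100% of the 90-base windows at the transcript end also occurred in other genes. Their low counts thus do not show that their RNA was absent. A member was called when its interval lay wholly beyond 2-fold. On that rule 43 members were lower in the Mg-TAGelMA library, 0 were higher and 19 lay within, beside a background of 6.77% lower and 21.2% higher among 16862 genes. The median log2 ratio of the members was -1.97, and that of all genes tested was 0.03. Among 787 other genes without introns the median was -0.47, with 11.3% lower and 5.08% higher. Scaled to the total of all other genes without introns, which moved every gene by 1.30 (log2), 19 members were lower and 9 higher. The background shares above do not apply to that scaling. The share of all genes called under it was not taken, so these 2 counts are not read as a result about the members.

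**Figure D1:**
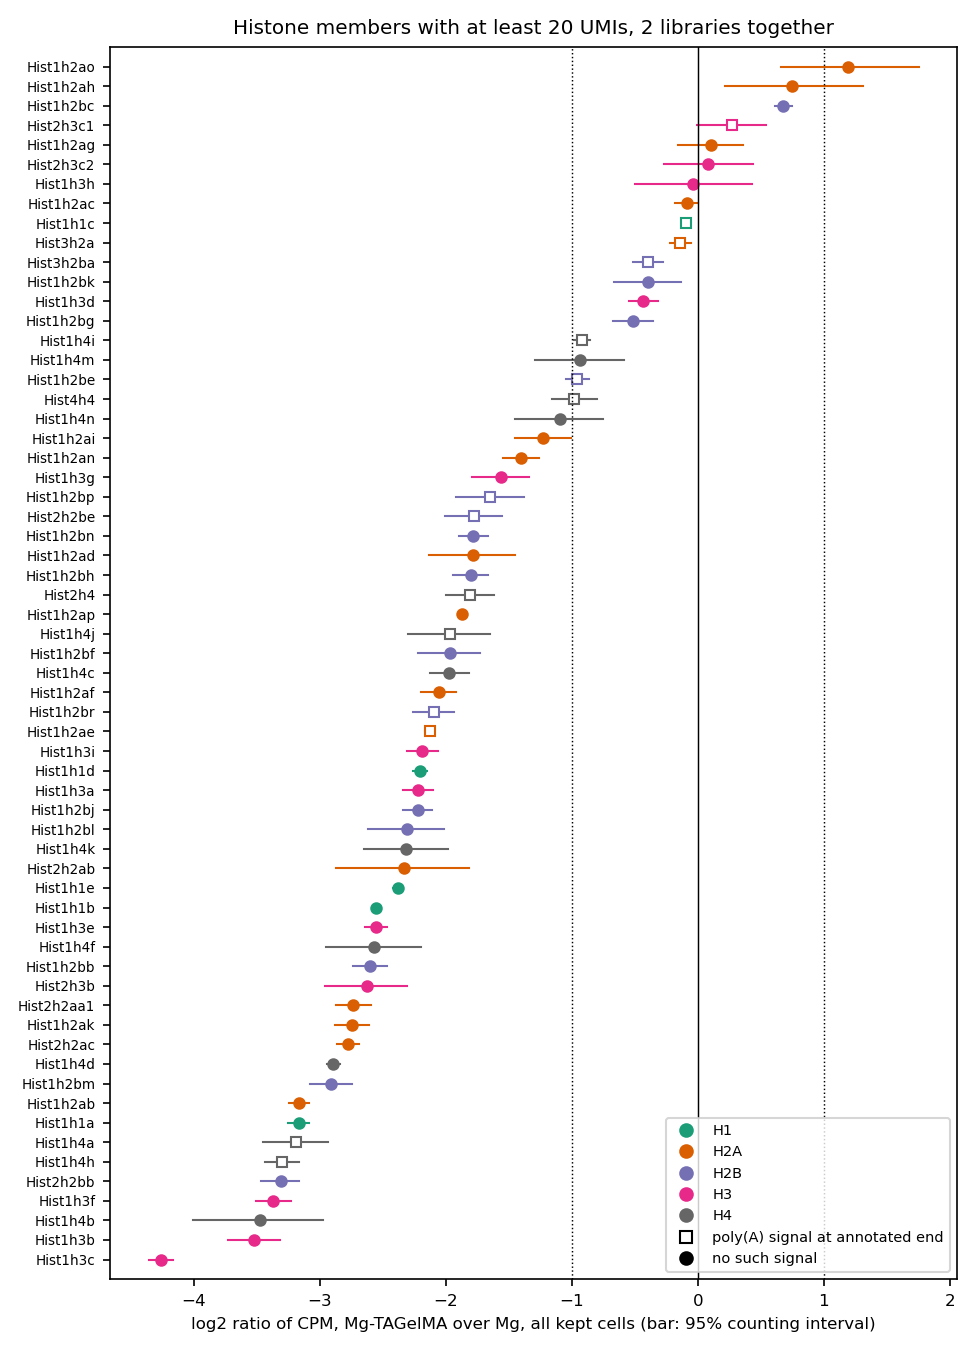
Log2 ratio of CPM, Mg-TAGelMA over Mg, in all kept cells for the 62 members with at least 20 UMIs, coloured by histone type, with 95% counting intervals as bars. Open squares are members with a poly(A) signal in the last 50 bases, dotted lines mark 2-fold, and the points run from -4.26 (Hist1h3c) to 1.19 (Hist1h2ao).

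Linker histones bind the DNA between nucleosomes. Hist1h1b had 757 CPM in the Mg and 129 in the Mg-TAGelMA library, 5.87-fold lower (5.739 to 5.9997). Hist1h1e had 499 and 95.7 CPM, 5.21-fold lower (5.08 to 5.35), in a gene that overlaps Hist1h2be on the same strand. For Hist1h1e, 100% of the 90-base windows also occurred in other genes. Hist1h1c stood apart from both, with 268 and 251 CPM, 1.07-fold lower (1.05 to 1.09). Its share of all histone UMIs was 5.06% in the Mg and 17.8% in the Mg-TAGelMA library, where it was the member with the most UMIs. The sign of its small log2 ratio, -0.10, turned to 0.09 when scaled to genes with at most 8 kb of intron.

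H2A pairs with H2B in the nucleosome. Hist1h2ap (chromosome 13, 21833026 to 21833507) had the most UMIs of all members in the Mg library, with 766 CPM there and 210 in the Mg-TAGelMA library, 3.65-fold lower (3.58 to 3.72). All of the 90-base windows at its end also occurred in transcripts of other genes, so reads of close copies could not be assigned with certainty. Hist1h2ae had 511 and 117 CPM, 4.37-fold lower (4.26 to 4.47). Hist1h2ab had 177 and 19.8 CPM, 8.95-fold lower (8.48 to 9.46), with 66.2% of its windows shared with other genes. The highest log2 ratios of the family were those of Hist1h2ao (1.19) and Hist1h2ah (0.75), followed by the H2B gene Hist1h2bc (0.68), the H3 gene Hist2h3c1 (0.27) and Hist1h2ag (0.10). These 3 H2A genes shared 75.9% to 91.0% of their windows with other genes and had only 39 and 121, 42 and 96, and 210 and 306 UMIs. The interval of the Hist1h2ag ratio (0.897 to 1.28) includes 1.

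Over both libraries together the most counted H2B gene was Hist1h2bc, and its ratio lay above 1, although Hist2h2bb (2985 UMIs) and Hist1h2bj (2773) had more in the Mg library. Hist1h2bc had 2710 UMIs (49.1 CPM) in the Mg and 5893 (78.6 CPM) in the Mg-TAGelMA library, a log2 ratio of 0.68, which did not reach the 2-fold bound. Its annotation spans 7554 bases of intron, and whether intronic reads were counted in either library is not given in the sources used here. Hist1h2be, with 33009 bases of intron, had 40.9 and 21.1 CPM. Hist1h2bj had 50.3 and 10.8 CPM, 4.66-fold lower (4.31 to 5.05), and Hist2h2bb 54.1 and 5.46 CPM, 9.92-fold lower (8.94 to 11.03).

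H3 and H4 form the tetramer at the core of the nucleosome. Hist1h3c (chromosome 13, 23744973 to 23745602, minus strand) had the lowest ratio of the family, with 13324 UMIs (241 CPM) in the Mg and 944 (12.6 CPM) in the Mg-TAGelMA library, 19.2-fold lower (18.0 to 20.5). Hist1h3b was 11.5-fold lower (9.98 to 13.3), Hist1h3f 10.3-fold (9.38 to 11.4) and Hist1h3e 5.87-fold (5.54 to 6.22). Of their windows 63.0%, 72.7% and 71.4% were shared with other genes, against 35.0% for Hist1h3c. Hist2h3c1, with 181 and 296 UMIs, had a log2 ratio of 0.27. Its ratio of 1.20 had an interval that includes 1 (0.997 to 1.46), and 100% of its windows were shared with other genes. Of the H4 genes, Hist1h4d had 346 and 46.7 CPM, 7.42-fold lower (7.16 to 7.69). Hist1h4h was 9.84-fold lower (8.97 to 10.8) and Hist1h4b 11.1-fold lower (7.87 to 16.1). Hist1h4i had 89.5 and 47.3 CPM, 1.89-fold lower (1.81 to 1.98), and was not called.

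Genes close together could differ widely in ratio. Hist1h1c and Hist1h3c lie close together on chromosome 13 (23738808 to 23740367 and 23744973 to 23745602), with log2 ratios of -0.10 and -4.26. Hist1h2ac and Hist1h2bc start close together on opposite strands (23681467 to 23683948 and 23684199 to 23692908), and had log2 ratios of -0.09 and 0.68. Promoters of RefSeq (GRCm38.p6, 250 bases before to 50 after the start) were matched for 62 members. TATAA on either strand was present in 79.0% of them and in 25.4% of 26963 other promoters, and CCAAT in 85.5% and 37.8%. The promoters of 2 H1 genes with unlike ratios are shown, with these letters in capitals. Hist1h1b lies at chr13:21780576-21780875 on the minus strand and Hist1h1c at chr13:23738557-23738856 on the plus strand.
Hist1h1b: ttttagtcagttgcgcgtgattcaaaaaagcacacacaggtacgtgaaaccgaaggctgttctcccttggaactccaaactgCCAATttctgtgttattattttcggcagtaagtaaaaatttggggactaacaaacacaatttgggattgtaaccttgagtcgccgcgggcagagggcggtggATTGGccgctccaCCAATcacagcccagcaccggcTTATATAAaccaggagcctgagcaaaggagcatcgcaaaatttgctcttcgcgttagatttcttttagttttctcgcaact
Hist1h1c: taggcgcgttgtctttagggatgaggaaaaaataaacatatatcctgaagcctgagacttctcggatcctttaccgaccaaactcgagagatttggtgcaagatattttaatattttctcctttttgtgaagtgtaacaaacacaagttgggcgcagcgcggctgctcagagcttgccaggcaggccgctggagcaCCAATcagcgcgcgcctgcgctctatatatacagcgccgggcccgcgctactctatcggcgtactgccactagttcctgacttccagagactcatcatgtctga
CCAAT occurs in both, and the exact letters TATAA in Hist1h1b alone of these 2 windows. Hist1h1c has the letters tatatata, which this exact search does not mark. The search thus does not show that Hist1h1c lacks a TATA-like element.

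Members were also grouped by their annotated 3′ end. These groups were formed after the values of the members had been seen, so their counts are a description. Of the 22 tested members whose transcript ends within 100 bases of the stem-loop, 17 were lower, and their summed level was 5.08-fold lower. Of the 8 members whose transcript runs over 300 bases past the stem-loop to a poly(A) signal (Hist1h1c, Hist3h2a, Hist1h2be, Hist2h3c1, Hist1h4i, Hist1h4j, Hist2h4 and Hist4h4), 2 were lower, and their sum was 1.28-fold lower. The 10 members with such a long end but no signal were 4.86-fold lower in sum, with 7 of 10 called. The 21 members with no stem-loop in the annotated transcript were in none of these groups. Of these, 15 of the 18 tested were lower, and their sum was 4.31-fold lower. Over all members with a poly(A) signal in the last 50 bases, whatever the distance, 8 of the 15 tested were lower and the sum was 2.16-fold lower, Hist1h4h (9.84-fold) among them. Of the 47 tested without the signal 35 were lower, and their sum was 4.70-fold lower. The 8 members gave 8.94% of histone UMIs in the Mg and 26.3% in the Mg-TAGelMA library. Hist1h1c alone gave most of these UMIs in each library.

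**Figure D2:**
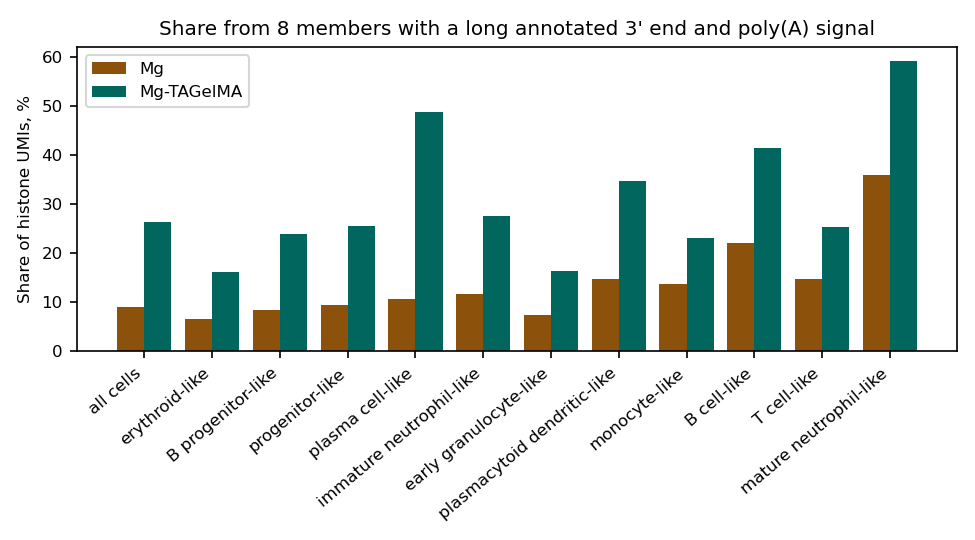
Share of all histone UMIs, in percent, that came from the 8 members with over 300 bases past the stem-loop and a poly(A) signal, by class and library (bars from 0). In each of the 11 classes the Mg-TAGelMA bar is the taller one, from 16.1% in erythroid-like to 59.0% in mature neutrophil-like cells.

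Cell classes were gated cell by cell on 8 markers each, with no histone gene among the markers, and carry "-like" names because no protein or sort supports them. Comparisons were made in the 11 classes that reached 100 cells on both sides, and the marker sets of these classes were raised in both libraries. In some classes many cells lay near the edge of the gate, such as 54 of 125 plasma cell-like cells of the Mg library. Of its plasmacytoid dendritic-like cells 56 of 132 did. Leiden clustering of both libraries together, with histone and cell cycle genes left out and no correction between libraries, split the cells by library. Of 36 clusters 29 had at least 90% of their cells from 1 library, and these held 90.8% of all kept cells. In each of the 11 classes the cluster with the most cells differed between libraries. The cluster shares of a class overlapped by 39.0% in erythroid-like and 30.03% in B progenitor-like cells, but by 0.126% in B cell-like, 0.4996% in immature neutrophil-like and 0% in mature neutrophil-like cells. All 245 mature neutrophil-like Mg cells lay in a cluster that the markers called immature neutrophil. The leading clusters of plasma cell-like cells, with 37.6% of them in the Mg and 46.1% in the Mg-TAGelMA library, were called B progenitor. The cluster called plasma cell held 12 Mg and 51 Mg-TAGelMA cells. The leading cluster was called progenitor for plasmacytoid dendritic-like Mg cells (34.1%) and early granulocyte for progenitor-like Mg-TAGelMA cells (58.1%). Each contrast within a class below thus compares cells that also differed between libraries in other genes, and the part of this in the histone results was not tested. Cells that passed no gate numbered 1735 and 969.

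In both libraries histone UMIs were highest in erythroid-like and B progenitor-like cells. In the Mg library erythroid-like cells (981 cells) led with 8849 CPM, followed by B progenitor-like cells (691) with 6251, progenitor-like cells (120) with 4805 and plasma cell-like cells (125) with 4714. The lowest levels there were 1391 CPM in B cell-like, 1204 in T cell-like and 1040 in mature neutrophil-like cells. In the Mg-TAGelMA library the highest were B progenitor-like (2986 CPM, 187 cells) and erythroid-like cells (2806 CPM, 151 cells), and the lowest again were B cell-like (658), T cell-like (500.3) and mature neutrophil-like cells (431). Ungated cells had 8190 and 2157 CPM.

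Within each of the 11 classes the histone sum was lower in the Mg-TAGelMA library. Scaled to all UMIs, plasma cell-like cells had the widest contrast, 3.91-fold (3.69 to 4.13). Erythroid-like cells followed at 3.15-fold (3.09 to 3.22) and progenitor-like cells at 2.93-fold (2.82 to 3.06). Monocyte-like cells had the narrowest, with 1906 and 1353 CPM, 1.41-fold (1.37 to 1.45), and early granulocyte-like cells were 1.78-fold lower (1.73 to 1.83). The other 6 classes lay between 2.09-fold in B progenitor-like and 2.85-fold in immature neutrophil-like cells. The order of the 2 widest contrasts turned with thinning. Thinned to 1000 UMIs each, plasma cell-like cells had a mean of 3.74 (Mg) and 1.59 (Mg-TAGelMA) histone UMIs. Erythroid-like cells had 8.25 and 2.45, the wider contrast. Summed S phase genes in plasma cell-like cells stood at 1617 and 426 CPM. Thinned plasma cell-like cells with 0 S phase and 0 G2 and M phase UMIs had 1395 (1045 to 1824) and 1571 (1292 to 1894) CPM. Scaled to all other genes without introns, the direction turned in immature neutrophil-like (ratio 1.61, Mg-TAGelMA over Mg), mature neutrophil-like (2.52), B cell-like (1.13), monocyte-like (2.01) and early granulocyte-like cells (1.19). The erythroid-like class joins 2 gates in unlike proportions, 287 early erythroid-like and 694 erythroblast-like cells in the Mg library against 94 and 57. Taken apart, with fewer than 100 cells on the Mg-TAGelMA side, early erythroid-like cells had 7701 and 2831 CPM, 2.72-fold lower (2.66 to 2.78), and erythroblast-like cells 11096 and 2561 CPM, 4.33-fold lower (4.06 to 4.62). Scaling by TMM moved all genes by -0.35 (log2) in erythroid-like cells and by 0.50 in plasma cell-like cells, and the histone direction was the same in both. The contrast widened in erythroid-like and narrowed in plasma cell-like cells, which then no longer had the widest one.

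**Figure D3:**
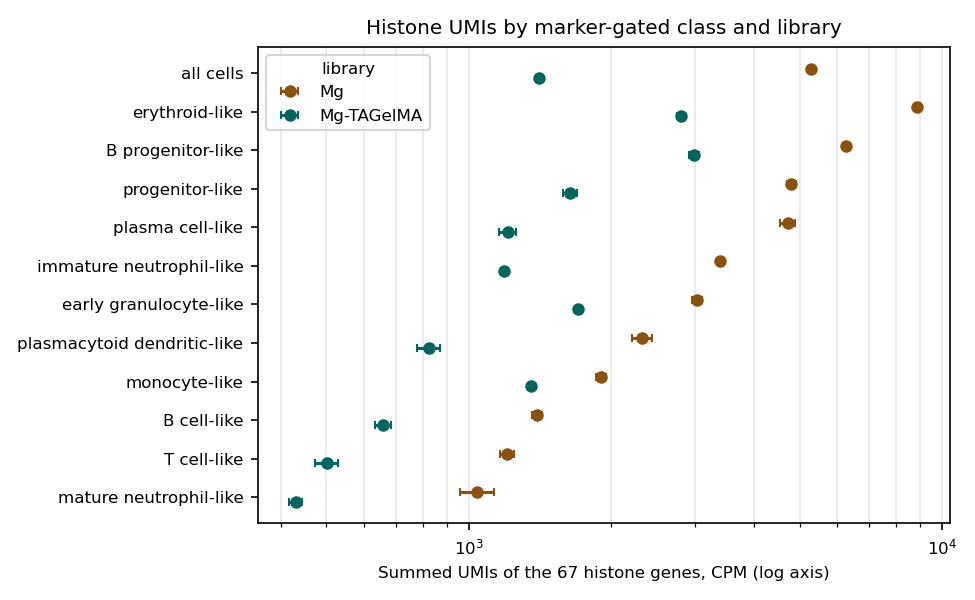
Summed CPM of the 67 members (log axis) for all kept cells and the 11 classes, with 95% counting intervals as bars and 1 point per library. With this scaling to all UMIs the Mg point of every row lies to the right of the Mg-TAGelMA point (5 classes turn when scaled to all other genes without introns), and the gap is smallest in monocyte-like cells (1906 and 1353 CPM).

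By class, calls of single members ran from 9 of 49 tested in monocyte-like cells (background 1.39% lower) to 33 of 61 in erythroid-like cells (background 0.847%) and 21 of 35 in plasma cell-like cells (background 7.48%). In B progenitor-like cells 17 of 59 were lower, beside 0.756% of all genes, and in progenitor-like cells 20 of 41 (background 0.707%). Immature neutrophil-like cells had 25 of 62 (2.67%), mature neutrophil-like cells 8 of 19 (3.76%) and early granulocyte-like cells 12 of 55 (2.03%). B cell-like cells had 19 of 42 (3.23%), plasmacytoid dendritic-like cells 12 of 23 (1.54%) and T cell-like cells 9 of 34 (1.34%). Hist1h3c was lower in each of the 10 classes where it was tested, from a log2 ratio of -4.90 in B cell-like to -2.53 in T cell-like cells. Hist1h4d was lower in all 11. Hist1h1c was called in none of the 11 classes, with log2 ratios from -0.83 in mature neutrophil-like to 0.88 in B progenitor-like cells.

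Calls in the higher direction were few, and Hist1h2bc alone had them in more than 1 class. It was higher in the Mg-TAGelMA library in 3 classes, with 46.6 and 122 CPM in erythroid-like, 33.7 and 86.5 in monocyte-like and 29.5 and 79.5 in early granulocyte-like cells. The backgrounds of higher calls in these classes were 14.9%, 11.4% and 7.81%. Hist3h2a was higher in erythroid-like cells (16.1 and 45.4 CPM) and its neighbour Hist3h2ba in B progenitor-like cells (22.4 and 82.2 CPM, background 13.3%). Hist3h2a overlaps Trim17 on the same strand. The erythroid-like calls of Hist1h2bc and Hist3h2a were not taken within the 2 stages, whose proportions differed between libraries. In immature neutrophil-like cells (background 9.61%) Hist1h2ao was called on 2 and 34 UMIs. In the other 6 classes 0 members were called higher, where the share of all genes called higher was 9.68% in progenitor-like, 4.65% in mature neutrophil-like, 9.79% in plasmacytoid dendritic-like, 15.8% in B cell-like, 5.1% in plasma cell-like and 12.8% in T cell-like cells.

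The member with the most histone UMIs differed between classes. In mature neutrophil-like cells Hist1h1c led in both libraries, with 320.5 CPM in Mg and 180 in Mg-TAGelMA, and gave 41.8% of the histone UMIs in the latter. Hist1h2bc came next there with 74.9 CPM. In plasma cell-like cells of the Mg library Hist1h1b led with 772 CPM, whereas in the Mg-TAGelMA library Hist1h1c led with 461 CPM and Hist1h2ap followed with 70.5. In erythroid-like cells Hist1h2ap led in both libraries, with 1317 and 557 CPM.

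To set histone UMIs beside the cell cycle, each cell was thinned to 1000 UMIs, which left out 604 Mg cells with fewer and 177 Mg-TAGelMA cells. Cells with at least 3 UMIs of 18 S phase genes, none of them a histone gene, are called S phase-rich. They numbered 1146 of 7518 in the Mg library (15.2%, Clopper-Pearson 14.4 to 16.1) and 429 of 7049 in the Mg-TAGelMA library (6.09%, 5.54 to 6.67). Histone UMIs stood at 10222 CPM in S phase-rich and 2177 CPM in the other Mg cells, 4.70-fold higher (4.58 to 4.81). The values in the Mg-TAGelMA library were 3058 and 875 CPM, 3.49-fold higher (3.29 to 3.71). Between libraries, S phase-rich cells were 3.34-fold lower (3.16 to 3.54) and the others 2.49-fold lower (2.41 to 2.56), so the contrast was present in both sets of cells. All of these values pool the classes, whose shares differed between the sets. Within classes with at least 20 S phase-rich cells, these were higher than the others by 1.30-fold (progenitor-like) to 4.03-fold (monocyte-like) in the Mg library. In the Mg-TAGelMA library the range was 1.20-fold (early granulocyte-like) to 3.99-fold (immature neutrophil-like).

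Cells with 0 UMIs of both the S phase and the G2 and M phase genes had 1122 CPM in the Mg and 653 in the Mg-TAGelMA library. Such cells still had histone UMIs, and free RNA in the droplets was not separated from RNA of the cell. Mature neutrophil-like cells, which should not divide, had at least 1 histone UMI in 61.5% (54.4 to 68.2) of Mg cells and 32.3% (30.1 to 34.5) of Mg-TAGelMA cells, and unthinned in 83.7% and 80.5%, at median depths of 1881 and 5110.5 UMIs. A share of cells with 1 UMI is thus not read as expression here.

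In erythroid-like cells S phase-rich cells made up 38.2% of 891 Mg cells and 53.3% of 135 Mg-TAGelMA cells, a difference between unlike mixes of stages. Within the stages the shares were 74.8% (68.9 to 80.1) and 71.6% (61.0 to 80.7) of early erythroid-like cells, and 24.2% (20.9 to 27.7) and 19.1% (9.15 to 33.3) of erythroblast-like cells. Over both stages their histone level was 13603 CPM in the Mg and 3194 in the Mg-TAGelMA library, 4.26-fold lower (3.73 to 4.88), and in the early erythroid-like stage alone it was 3.22-fold lower (2.78 to 3.73). S phase-rich B progenitor-like cells had 8135 and 4000 CPM, 2.03-fold lower (1.69 to 2.46). In immature neutrophil-like cells the S phase-rich cells had 3579 and 3116 CPM, 1.15-fold lower with an interval (0.971 to 1.36) that includes no difference, while the other cells were 2.32-fold lower (2.13 to 2.52). This depended on the setting, since the S phase-rich cells were 1.37-fold lower (1.21 to 1.55) at 2 or more S phase UMIs, 1.58-fold (1.46 to 1.72) when thinned to 2000 UMIs and 2.61-fold (2.56 to 2.66) unthinned. Cells with at least 3 G2 and M phase UMIs but fewer than 3 of S phase had histone levels near those of S phase-rich cells, at 8203 against 10222 CPM in the Mg and 2891 against 3058 in the Mg-TAGelMA library.

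**Figure D4:**
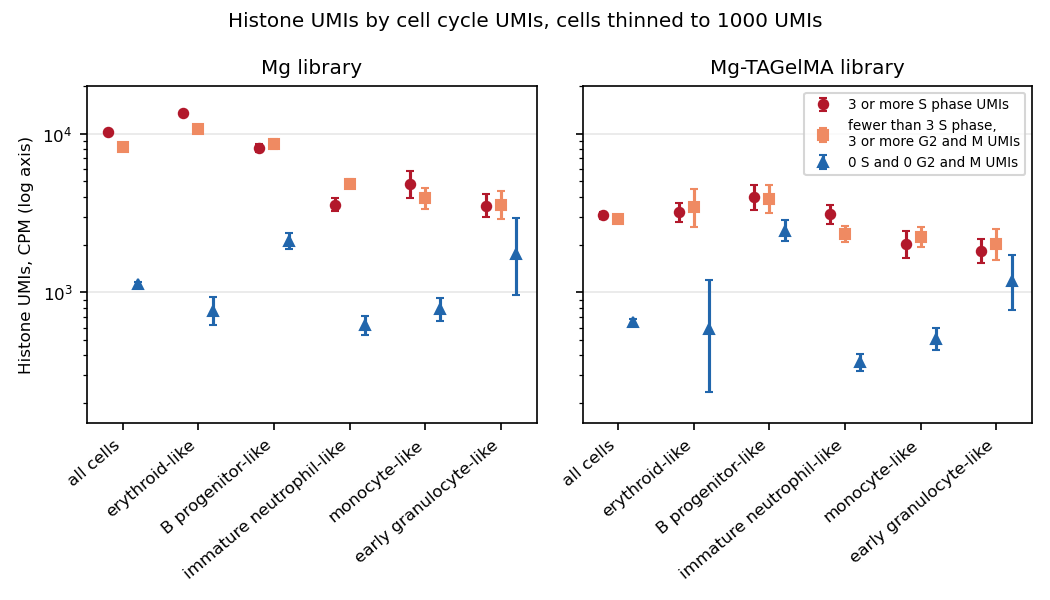
Histone CPM (log axis) in thinned cells of all classes together and of 5 classes, 1 panel per library, split by S phase and G2 and M phase UMIs, with 95% counting intervals. In all cells the values are 10222, 8203 and 1122 CPM in the Mg and 3058, 2891 and 653 in the Mg-TAGelMA library.

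Cells very rich in histone RNA were found mainly in the Mg library. At least 10 histone UMIs of 1000 were counted in 771 of 7518 Mg cells (10.3%, 9.58 to 10.96), which held 60.7% of the thinned histone UMIs, and in 39 of 7049 Mg-TAGelMA cells (0.553%, 0.394 to 0.756), which held 6.42%. Among erythroid-like cells the shares were 29.7% (26.8 to 32.9) and 2.22% (0.461 to 6.36), and among B progenitor-like cells 16.4% (13.6 to 19.4) and 3.24% (1.20 to 6.93). The highest cell had 75 histone UMIs of 1000 in the Mg and 19 in the Mg-TAGelMA library. Of 1801 mature neutrophil-like Mg-TAGelMA cells 0 reached this count, which allows a share of up to 0.167% by the 3-cell floor, while the exact interval reaches 0.205%.

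The members differed widely in their ratio between S phase-rich cells and cells with 0 cycle UMIs, taken over all classes together. Such a ratio also carries the classes in which a member was counted, and the part of this was not tested. Hist3h2a, for example, had its highest Mg level in plasmacytoid dendritic-like cells (81.8 CPM). Across members with at least 20 UMIs in the 2 sets of cells, the median ratio of S phase-rich cells over cells with 0 cycle UMIs was 12.1 in the Mg library (47 members) and 5.80 in the Mg-TAGelMA library (23 members). Hist1h2ab had ratios of 29.4 (19.9 to 45.3) and 59.7 (20.7 to 235), Hist1h1b 27.5 and 16.4, and Hist1h2ap 17.9 and 22.4. Hist1h1c had 1.83 (1.61 to 2.08) and 1.16 (0.9497 to 1.39), Hist1h2bc 2.69 and 1.54, and Hist3h2a 0.437 (0.295 to 0.630) and 1.36 (0.847 to 2.10). Over the 23 members with both values the log2 ratios of the libraries correlated with r = 0.87 (Spearman rho 0.89), a description across genes that are not independent replicates. The 6 members of the Mg library with a long end and a poly(A) signal had a median ratio of 4.27, and the 14 ending within 100 bases of the stem-loop had 14.8.

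**Figure D5:**
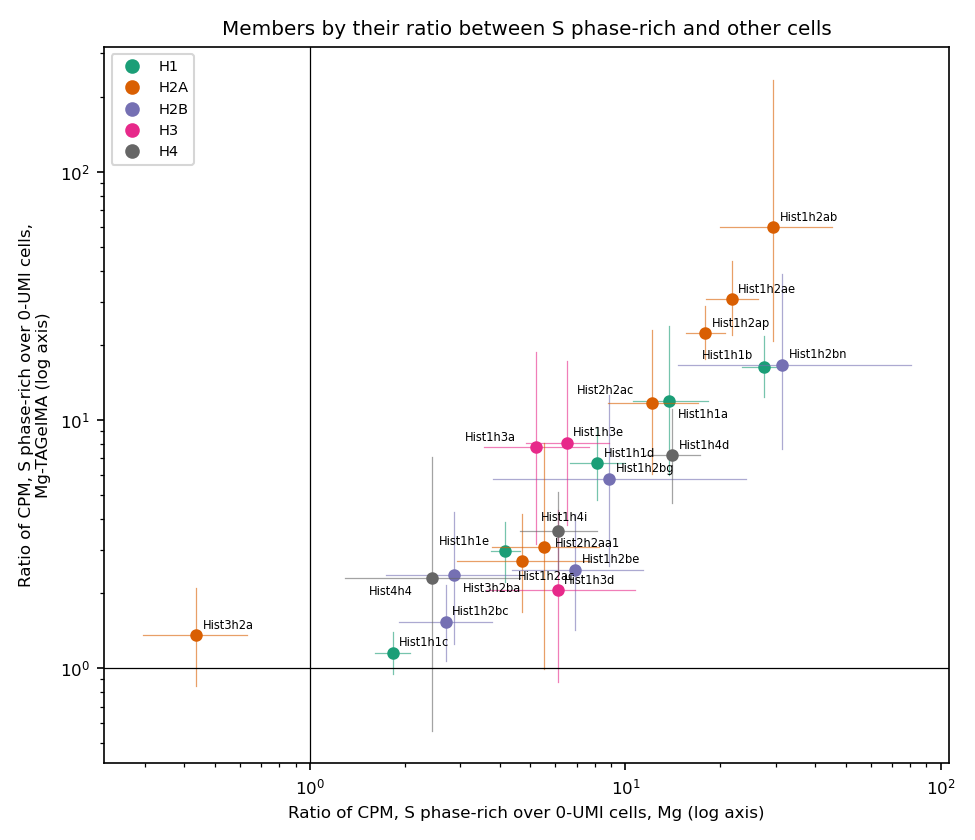
Ratio of CPM in S phase-rich over 0-cycle-UMI cells for the 23 members with enough UMIs in both libraries, Mg on the x axis and Mg-TAGelMA on the y axis (both log axes), coloured by type, with 95% counting intervals. Hist1h1c (1.83 and 1.16), Hist1h2bc and Hist3h2a lie at the lower left, Hist1h2ab (29.4 and 59.7) at the upper right. Cells of all classes are pooled.

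Genes that act on these mRNAs and proteins had median log2 ratios nearer to no change in all cells than the members. Of 17 genes of histone mRNA 3′ processing and turnover, 1 was lower and 0 higher, with a median log2 ratio of -0.53. Such a count, like that of the chaperones, is near the share among all genes (6.77% lower). The gene called was Cpsf2, a subunit of the cleavage complex (114 and 50.7 CPM, 2.25-fold lower, 2.16 to 2.34). Slbp, which binds the stem-loop, had 237 and 119 CPM, 1.99-fold lower (1.94 to 2.05), and Srrt 105 and 53.5 CPM. Of 12 histone chaperones and import factors 1 was lower, Ssrp1 of the FACT complex (217 and 99.2 CPM), with a median of -0.77. Chaf1a of the CAF-1 complex had 41.4 and 20.5 CPM and Nasp 189 and 101.2. Of 10 replacement and linker variant histones, which are made outside S phase as well, 0 were lower or higher, with a median of -0.10 and the largest log2 ratio in Cenpa, the centromeric H3 (-0.92), followed by H2afv (-0.80) and H2afx (-0.72).

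In all cells cell cycle genes were lower too, with medians nearer to no change than that of the members (-1.97). Of 18 S phase genes 10 were lower, with a median log2 ratio of -1.07, led by Mcm2 (-1.71), Uhrf1 (-1.55) and Cdc6 (-1.51). Of 12 G2 and M phase genes 11 were lower, with a median of -1.31, led by Mki67 (-2.16), Cenpf (-1.92) and Plk1 (-1.67). In erythroid-like cells 0 of the 18 S phase genes were called and their median was -0.23, while 4 of the 12 G2 and M phase genes were (median -0.86), beside 33 of 61 histone members (median -1.64). This class joins early erythroid-like and erythroblast-like cells in unlike proportions, 287 and 694 Mg cells against 94 and 57 Mg-TAGelMA cells. The stages differ in their share of S phase-rich cells, and these medians were not taken within stages. The order of the medians was another in some classes. In mature neutrophil-like cells the medians were -0.89 for the members, -0.998 for S phase and -1.14 for G2 and M phase genes. In early granulocyte-like cells they were -0.50, -0.55 and -0.84. In monocyte-like cells the members had -0.76, whereas the S phase genes had 0.29 and the G2 and M phase genes 0.11. Across the 11 classes the summed S phase genes correlated with the histone sum on the log2 scale with r = 0.95 in the Mg and 0.91 in the Mg-TAGelMA library, points that share a library. Of 2487 genes ranked by the lower of their 2 correlations over these 11 classes, the closest to the histone sum were Uhrf1 (0.95 and 0.94), Ccnb2 (0.92 and 0.94), Tpx2 (0.93 and 0.92), Ccna2 (0.94 and 0.92) and Cdca3 (0.93 and 0.92).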

How the data were processed

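The values used are deposited raw counts of UMIs for each gene in each barcode, made by the authors with Cell Ranger 5.0.0 (Mg) and 7.0.1 (Mg-TAGelMA) per the file headers. STAR and mm10 are named in the submitters' processing notes. The annotation release and intron counting are not given in the sources used here. Deposited gene symbols and barcodes carry no unit. The libraries held 58261391 and 79890998 UMIs. Cells with at least 200 genes and at most 15% mitochondrial counts were kept, and scrublet doublets (197 and 297) were removed. A cell joined the class with the highest mean z-scored log level of its 8 markers, if that was at least 0.5 and led by 0.25. Erythroid-like joins 2 gates, a choice made after seeing class sizes. Counts were summed and scaled to CPM, and ratios have exact conditional binomial 95% intervals. Python 3.11.15, scanpy 1.11.5, and for scaling edgeR 4.0.16 and DESeq2 1.42.0 were used. On simulated data for all cells (16860 genes), 97% of genes changed by a log2 of 1.5 and 100% at 2 were recovered.

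The members and lists were chosen with earlier results of these data known. Named are the 3 members of each type with the most UMIs, the 5 highest and 5 lowest ratios, the 3 largest ratios per list and the 5 most like genes. Hist3h2a, Hist3h2ba, Hist1h2ac, members with higher calls, those of the 3′ end group and those with stem-loops shown were named after their values were seen.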

Additional observations from a re-analysis of the deposited data

How the results depend on the processing

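Each ratio here is Mg-TAGelMA over Mg. Of 2 totals added after seeing the data, that of all other genes without introns moved most results, and the second, without Gm42418, AY036118, mitochondrial and haemoglobin genes, was added after the first had reversed some of them. Under the first, directions reversed for H2B (1.07), immature neutrophil-like (1.61), mature neutrophil-like (2.52), B cell-like (1.13), early granulocyte-like (1.19) and monocyte-like cells (2.01). The other ratios under it were 0.653 for all members, 0.702 for H1, 0.640 for H2A, 0.371 for H3, 0.516 for H4, 0.706 in progenitor-like, 0.947 in plasmacytoid dendritic-like, 0.521 in erythroid-like, 0.895 in B progenitor-like and 0.986 in T cell-like cells. By member, 19 were lower and 9 higher under it, with no share of all genes taken beside these counts. Under the second they were 0.452 in early granulocyte-like, 0.531 in mature neutrophil-like, 0.5496 in plasmacytoid dendritic-like, 0.496 in B progenitor-like, 0.627 in B cell-like, 0.106 in plasma cell-like and 0.499 in T cell-like cells. With cells thinned to 1000 UMIs the ratio was 0.532 for H2B, 0.504 in progenitor-like, 0.454 in plasmacytoid dendritic-like, 0.566 in B progenitor-like, 0.542 in B cell-like, 0.425 in plasma cell-like and 0.464 in T cell-like cells. Scaled to genes with at most 8 kb of intron it was 0.494 for H2B, 0.486 in plasmacytoid dendritic-like, 0.6195 in B progenitor-like, 0.658 in B cell-like and 0.545 in T cell-like cells. Without erythroid cells H2B stood at 0.513. Without Hist1h2ap, B progenitor-like cells stood at 0.499 and B cell-like at 0.504. TMM gave 0.476 and median-ratio size factors 0.467 in mature neutrophil-like cells, and the latter 0.485 in B cell-like cells. Leiden classes gave 0.622 in progenitor-like and 0.687 in T cell-like cells. A stricter gate gave 0.229 in plasmacytoid dendritic-like and 0.494 in B cell-like cells, and at least 500 genes 0.494 in T cell-like cells. At a 1.5-fold bound 2 members were higher. For S phase-rich over other cells, the ratio was 6.67 unthinned, 3.02 at 2000 UMIs and 2.47 at 2 or more S phase UMIs in immature neutrophil-like Mg cells, 4.65 unthinned in erythroid-like Mg-TAGelMA cells and 1.89 at 5 or more in B progenitor-like Mg cells. Between libraries, S phase-rich cells had ratios of 0.383 unthinned in immature neutrophil-like cells, and of 0.463 unthinned and 0.414 at 2000 UMIs in B progenitor-like cells, and the other cells 0.535 in immature neutrophil-like, 0.216 in erythroid-like and 1.06 in B progenitor-like cells, all unthinned. The cause was not tested. The other 253 alternative values stayed on their side of the 2-fold bound or, for counts, within 1.5 times, and all-cell totals of the members ranged from 1.53-fold to 4.26-fold lower. No paired analysis was possible because each nail had 1 library. No library could be left out, and UMI depth limits members below 20 UMIs.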
